A study of Mus musculus with 15 samples.

Results

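Cathepsins are the proteases of the lysosome and endosome, and 10 of their genes were followed here: Ctsd and Ctse, Ctsl, Ctss and Ctsk, Ctsb, Ctsh, Ctsc and Ctsz, and Ctsa. They were chosen by name and found in the table of read counts through their numeric Entrez identifiers, with no threshold on a measured value. The choice was made with earlier results of these data known. These were 10 of the 17892 lines with values, and all 10 were among the 14853 genes that passed the filter on low counts. RNA had been sequenced from PDGFRβ-positive cells isolated from the brain of neonatal mice. There were 4 libraries from miR-210 knockout (KO) mice 24 h after hypoxia-ischemia (HI), 4 from wild-type (WT) mice 24 h after HI, 4 from KO sham mice and 3 from WT sham mice. HI is a brain injury produced by a shortage of blood flow and oxygen, and a sham animal goes through the procedure without that injury. PDGFRβ is the receptor by which pericytes, the contractile cells around brain capillaries, and some fibroblasts are usually recognised. The labels do not give the strain, the age in days, the sex, the tissues that lack miR-210, the hour at which sham cells were taken or the means of isolation. They do not say whether replicates were separate animals, so the p-values measure only the spread between these libraries, which may be technical.

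Cathepsins are made as inactive precursors, carried to the lysosome and activated by the acid pH there. They fall into 3 catalytic classes, with aspartic enzymes (Ctsd, Ctse), cysteine enzymes (Ctsb, Ctsc, Ctsh, Ctsk, Ctsl, Ctss, Ctsz) and a serine enzyme (Ctsa). Some cut inside a protein chain and others take residues from its ends. Cystatins block enzymes of the cysteine class, and several serpins block some cathepsins. In brain, cathepsins are abundant in microglia, the resident macrophages, where they digest engulfed material and prepare peptides for MHC class II, but most nucleated cells carry some of them.

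Library totals ran from 15436376 to 18118697 expected counts. Pdgfrb itself was present in every library, at 194 to 596 CPM (counts scaled to a common library size) in KO HI, 751 to 1049 CPM in WT HI, 251 to 785 CPM in KO sham and 688 to 987 CPM in WT sham. Microglia markers were also high in every library. The 15 listed markers summed to 6103 to 12980 CPM in KO HI, 1861 to 4779 CPM in WT HI, 3400 to 6064 CPM in KO sham and 2605 to 3622 CPM in WT sham, and the defining genes Cx3cr1, Tmem119 and P2ry12 were never at 0, with lowest values of 182, 42.7 and 27.2 CPM, all in WT HI. Neuron markers stood apart in 5 libraries (KO HI 2 and 3, KO sham 1 and 3, WT sham 2), at a mean of 3.60 to 6.99 log2 CPM against 0.88 to 2.67 log2 CPM in the other 10. In these bulk samples fewer cells of a type and less RNA per cell cannot be told apart. The targeted microRNA could not be checked, because its 1 line in the table carried no values.

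HI was accompanied by a higher level of most cathepsins in KO cells, and the 6 genes that rose there were also the 6 that stood higher in every WT HI library than in every WT sham library. In KO cells 6 of 10 members rose (Ctsl, Ctsc, Ctsb, Ctsz, Ctsd and Ctsa) and 0 fell, where edgeR's quasi-likelihood test with Benjamini-Hochberg adjustment called 7.01% of all genes tested, 4.88% higher and 2.13% lower. The log2 fold changes of these 6 ran from 1.11 to 1.87. The median over the 10 members was 1.34, against -0.06 over all genes tested. For the same 6 genes the lowest KO HI library lay above the highest KO sham library, which held for 6.06% of all genes, and 0 members were without overlap in the lower direction, beside 2.78%. At an unadjusted p under 0.05 there were 7 members in KO, beside 22.0% of all genes. In WT cells edgeR called 0 of 10 members, with 1.82% of all genes called, 1.38% higher and 0.444% lower. At an unadjusted p under 0.05 there were 7 members, beside 12.8% of all genes. DESeq2 called 5 members in WT (Ctsb, Ctsc, Ctsd, Ctsl and Ctsz) with 5.26% of all genes, and limma-voom called 1, with 281 of 14853 genes. The groups did not overlap in WT for 6 members that were higher and for 1, Ctsh, that was lower, beside 15.9% and 15.8% of all genes. The median in WT was 0.64, against -0.01 over all genes. All 10 members were also tested for a difference between the KO and WT responses: edgeR called 0, with 0.0% of all genes called, DESeq2 called 0, with 0.148% of all genes, limma-voom called 0, and 1 member (Ctss) had an unadjusted p under 0.05, beside 5.17% of all genes. A call in KO and none in WT is therefore not a shown difference between genotypes. In a fit of the KO libraries alone edgeR called 0 members and 16 of 14384 genes, with 7 members and 1911 genes at an unadjusted p under 0.05. A fit of the WT libraries alone, in contrast, called 7 members and 2443 of 14253 genes. DESeq2 called 7 members in KO, with 1932 of 14853 genes, and limma-voom 6, with 1008 of 14853. Leaving out any single library kept the KO count at 6 in each of 15 fits, which called 355 to 1927 genes.

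**Figure D1:**
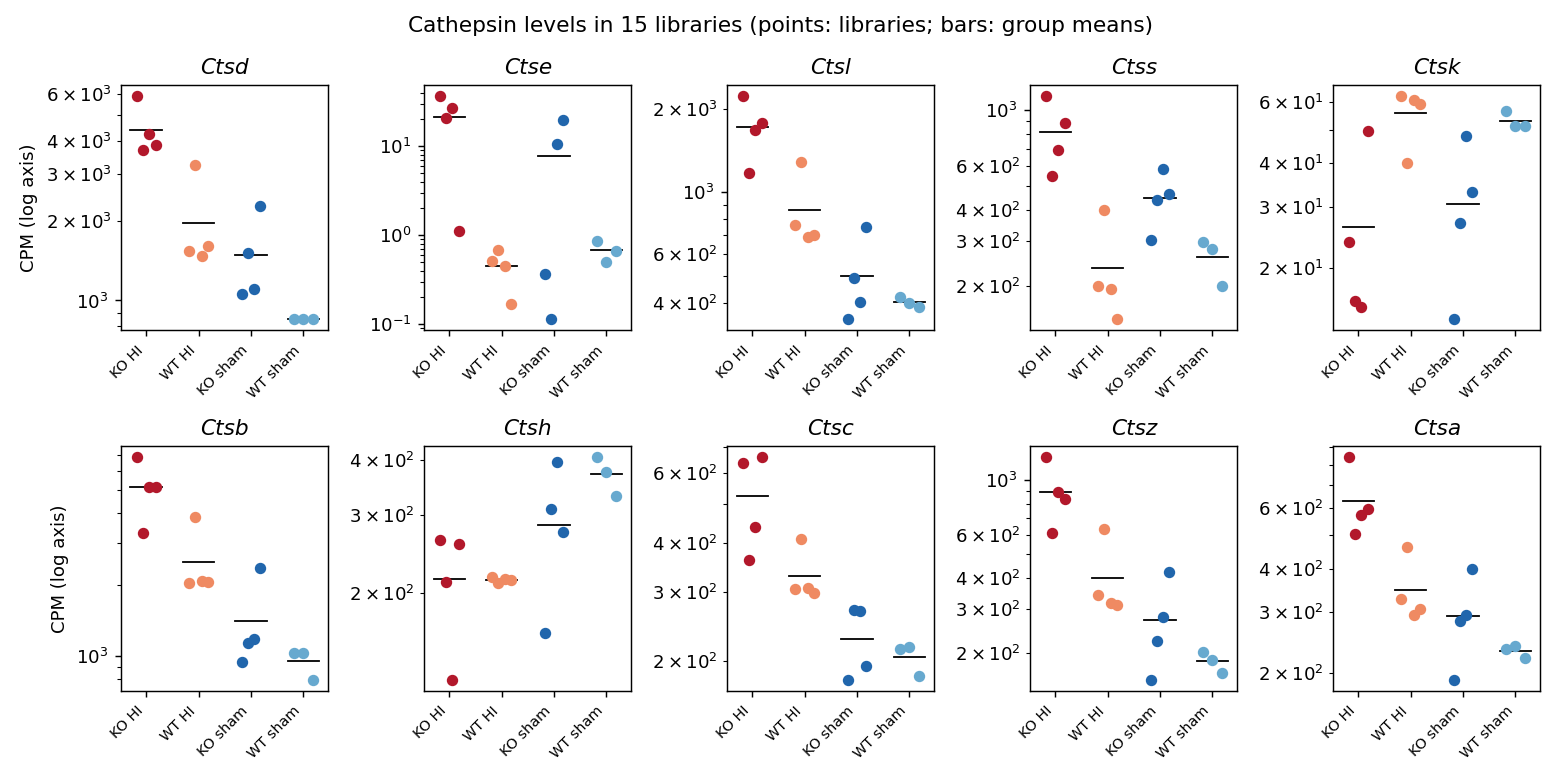
CPM (vertical axis, logarithmic and scaled separately for each gene) of the 10 cathepsins in each library of the 4 groups. Points are libraries and bars are group means; the KO HI points of Ctsd, from 3679 to 5899 CPM, lie above every other point of that gene, while Ctsh and Ctsk run in other directions.

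Ctsd encodes cathepsin D, the main aspartic protease of lysosomes, whose loss causes a neuronal storage disease. It had 5899, 3679, 4232 and 3842 CPM in KO HI libraries 1 to 4, against 1056, 1513, 1103 and 2267 CPM in KO sham libraries 1, 3, 4 and 6. In WT it had 1532, 3229, 1473 and 1611 CPM in HI libraries 1, 2, 4 and 5, against 852, 855 and 849 CPM in sham libraries 1 to 3. Within each genotype every HI library was above every sham library, and the WT sham libraries were nearly equal while WT HI 2 stood well above the other 3 WT HI libraries. The log2 fold change was 1.57 ± 0.30 (SE) in KO (adjusted p = 0.0109, edgeR) and 1.20 ± 0.33 in WT (adjusted p = 0.0861). Without WT HI 2 the WT value was 0.85 ± 0.27.

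Ctse, the other aspartic enzyme, is known from endosomes of immune cells and from stomach lining, and behaved unlike the rest. It had 647, 364, 449 and 20 expected counts in KO HI libraries 1 to 4, against 5, 2, 182 and 363 in KO sham libraries 1, 3, 4 and 6. In WT it had 9, 12, 8 and 3 expected counts after HI, against 15, 9 and 12 in sham. The gene was thus near the counting limit in all 7 WT libraries and in 2 KO sham libraries, low in KO HI 4, and clearly present in the other 5 KO libraries. As CPM the KO HI libraries ran from 1.12 to 36.6, against 0.113 to 19.9 in KO sham. edgeR gave no HI call in either genotype, with log2 fold changes of 1.47 ± 1.12 in KO (adjusted p = 0.511, edgeR) and -0.56 ± 1.40 in WT (adjusted p = 0.938).

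Ctsl, an endopeptidase of the cysteine class that also processes the invariant chain in thymus, had the smallest adjusted p among the members in KO. It had 2219, 1174, 1677 and 1780 CPM in KO HI libraries 1 to 4, against 349, 493, 404 and 749 CPM in KO sham libraries 1, 3, 4 and 6. In WT it had 760, 1287, 692 and 704 CPM in HI libraries 1, 2, 4 and 5, against 420, 401 and 385 CPM in sham. No HI library of a genotype fell among its sham libraries, and the lowest WT HI library was below the highest KO sham library. The log2 fold change was 1.78 ± 0.27 in KO (adjusted p = 0.00516, edgeR) and 1.10 ± 0.30 in WT (adjusted p = 0.0826).

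Ctsb, which cuts inside chains and also removes dipeptides from the carboxyl end, had the highest fitted log2 fold change of the 10 in KO. It had 6898, 3305, 5160 and 5158 CPM in KO HI libraries 1 to 4, against 943, 1138, 1186 and 2341 CPM in KO sham libraries 1, 3, 4 and 6. In WT it had 2038, 3849, 2075 and 2046 CPM in HI libraries 1, 2, 4 and 5, against 1035, 1037 and 794 CPM in sham. KO sham 6 alone reached the level of the WT HI libraries, and WT HI 2 was the only WT library within the KO HI range. The log2 fold change was 1.87 ± 0.33 in KO (adjusted p = 0.00695, edgeR) and 1.39 ± 0.35 in WT (adjusted p = 0.0680).

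Ctsz, a carboxypeptidase, followed Ctsb closely. It had 1234, 611, 894 and 837 CPM in KO HI libraries 1 to 4, against 156, 224, 279 and 426 CPM in KO sham libraries 1, 3, 4 and 6. In WT it had 342, 634, 318 and 313 CPM in HI libraries 1, 2, 4 and 5, against 202, 188 and 167 CPM in sham. HI and sham did not overlap within either genotype. The log2 fold change was 1.72 ± 0.32 in KO (adjusted p = 0.00968, edgeR) and 1.12 ± 0.35 in WT (adjusted p = 0.143).

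Ctsc, a dipeptidyl peptidase that activates the serine proteases of granules, and Ctsa, a serine carboxypeptidase that protects neuraminidase and β-galactosidase in the lysosome, had smaller fitted changes. Ctsc had 638, 362, 438 and 660 CPM in KO HI libraries 1 to 4, against 179, 269, 268 and 194 CPM in KO sham. It had 305, 409, 308 and 298 CPM in WT HI, against 215, 218 and 184 CPM in WT sham. Ctsc was the only member for which all 8 HI libraries lay above all 7 sham libraries whatever the genotype, as did 1.82% of all genes. Its log2 fold change was 1.20 ± 0.21 in KO (adjusted p = 0.00664, edgeR) and 0.68 ± 0.22 in WT (adjusted p = 0.168). Ctsa averaged 630 ± 148 CPM in KO HI and 292 ± 85.8 CPM in KO sham (SD, n = 4 each), with a log2 fold change of 1.11 ± 0.22 (adjusted p = 0.0124, edgeR). It averaged 348 ± 77.8 CPM in WT HI (SD, n = 4) and 231 ± 9.59 CPM in WT sham (SD, n = 3), with a log2 fold change of 0.59 ± 0.24 (adjusted p = 0.305).

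Ctss, Ctsh and Ctsk were not called by edgeR for HI in either genotype in the fit of all libraries. Ctss encodes the endopeptidase of microglia and other antigen-presenting cells that trims the invariant chain and works at neutral pH. It had 1132, 547, 689 and 885 CPM in KO HI libraries 1 to 4, against 304, 436, 582 and 464 CPM in KO sham libraries 1, 3, 4 and 6. In WT it had 200, 401, 194 and 147 CPM in HI libraries 1, 2, 4 and 5, against 299, 279 and 200 CPM in sham. In WT 3 of the 4 HI libraries were below the lowest sham library, and in KO the groups overlapped at KO HI 2 and KO sham 4. The log2 fold change was 0.87 ± 0.31 in KO (adjusted p = 0.121, edgeR) and -0.14 ± 0.34 in WT (adjusted p = 0.935), a difference of 1.01 ± 0.46 with an unadjusted p of 0.0472 and an adjusted p of 0.932. DESeq2 called Ctss in KO, at an adjusted p of 0.0444.

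Ctsh, an aminopeptidase, ran the other way. It had 217, 210, 214 and 213 CPM in WT HI libraries 1, 2, 4 and 5, against 406, 375 and 332 CPM in WT sham. In KO it had 263, 211, 127 and 257 CPM after HI, against 162, 310, 395 and 274 CPM in sham libraries 1, 3, 4 and 6. The WT HI libraries were nearly equal to each other and all below the WT sham libraries, whereas the KO groups overlapped. The log2 fold change was -0.80 ± 0.27 in WT (adjusted p = 0.179, edgeR) and -0.41 ± 0.25 in KO (adjusted p = 0.375). In the fit of the WT libraries alone, which takes the spread from them only, Ctsh had an adjusted p of 0.000893.

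Ctsk is the collagen-degrading cathepsin of osteoclasts and is also made by fibroblasts. It averaged 26.2 ± 15.9 CPM in KO HI and 30.5 ± 13.9 CPM in KO sham (SD, n = 4 each), and 55.7 ± 10.5 CPM in WT HI (SD, n = 4) and 53.0 ± 2.98 CPM in WT sham (SD, n = 3). HI and sham overlapped in both genotypes, with log2 fold changes of -0.22 ± 0.38 in KO (adjusted p = 0.803, edgeR) and 0.07 ± 0.41 in WT (adjusted p = 0.976).

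**Figure D2:**
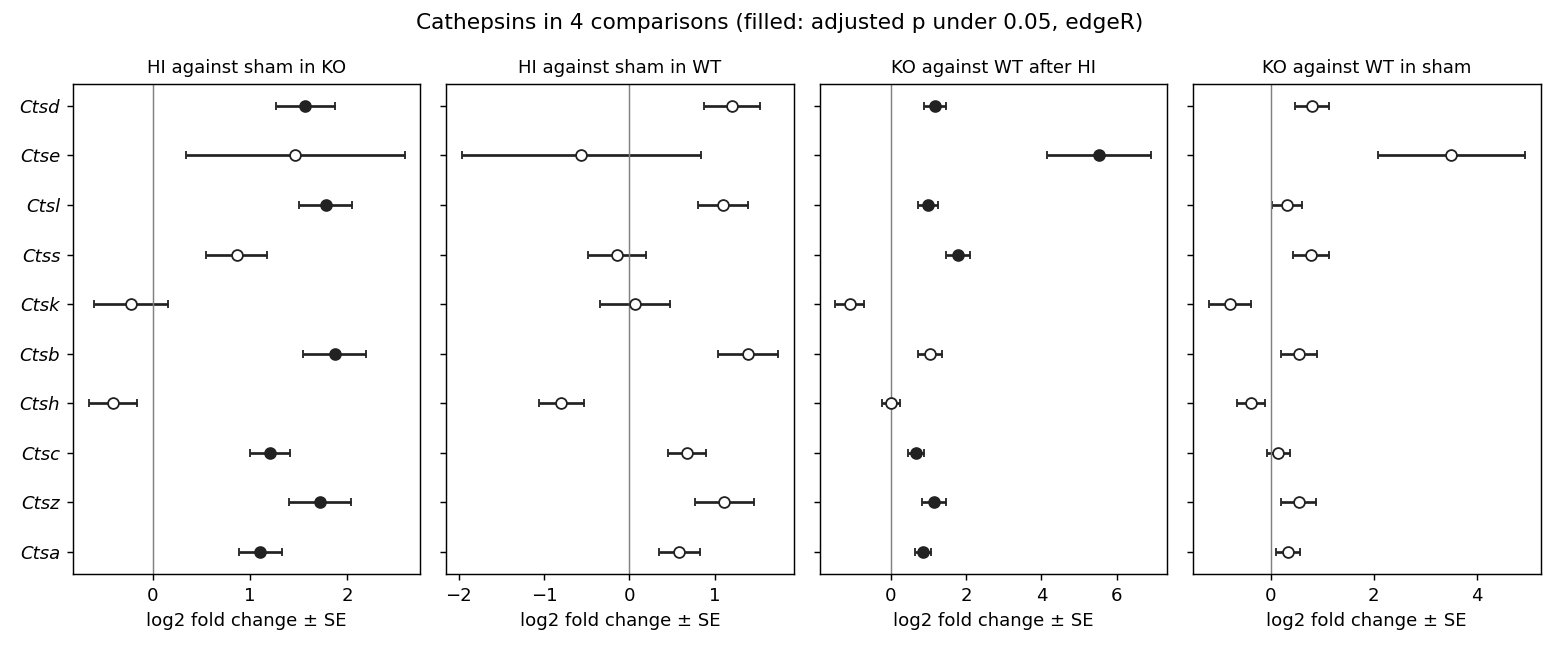
Fitted log2 fold change with its standard error (horizontal axis, scaled separately in each panel) for the 10 cathepsins in 4 comparisons, HI against sham in KO, HI against sham in WT, KO against WT after HI and KO against WT in sham. Filled points have an edgeR adjusted p under 0.05; there are 6 in KO, 0 in WT, 7 after HI and 0 in sham.

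Between genotypes after HI, 7 of 10 members were higher in KO (Ctss, Ctse, Ctsd, Ctsa, Ctsl, Ctsz and Ctsc) and 0 were lower. In this comparison edgeR called 12.4% of all genes, 5.96% higher and 6.46% lower. DESeq2 called 9 members, 8 higher and Ctsk lower, with 22.9% of all genes, and limma-voom called 7, 6 higher and Ctsk lower, with 2152 of 14853 genes. The median over the members was 1.01 on the log2 scale, against 0.06 over all genes. Ctss had the smallest adjusted p of the 10. Its 4 KO HI libraries, from 547 to 1132 CPM, were all above the 4 WT HI libraries, from 147 to 401 CPM, and the log2 fold change was 1.79 ± 0.32 (adjusted p = 0.00713, edgeR). Ctsd averaged 4413 ± 1017 CPM in KO HI and 1961 ± 847 CPM in WT HI (SD, n = 4 each), a log2 fold change of 1.17 ± 0.30 (adjusted p = 0.0246). Ctsa likewise had no overlap, with a log2 fold change of 0.86 ± 0.22 (adjusted p = 0.0256). Non-overlap in the higher direction held for 4 members, Ctss, Ctsd, Ctsa and Ctse, and for 9.89% of all genes.

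For the other members WT HI 2 lay among the KO HI libraries. Ctsl averaged 1713 ± 429 CPM in KO HI and 861 ± 286 CPM in WT HI (SD, n = 4 each), with a log2 fold change of 0.99 ± 0.27 (adjusted p = 0.0312, edgeR). Ctsz had 1.15 ± 0.32 (adjusted p = 0.0322) and Ctsc had 0.67 ± 0.20 (adjusted p = 0.0478) on the same scale. Ctsb was just outside the threshold, at 1.04 ± 0.32 (adjusted p = 0.05001). Ctsk had -1.09 ± 0.38 (adjusted p = 0.0791) and Ctsh 0.01 ± 0.25 (adjusted p = 0.989). For Ctsh the means were 215 ± 63.1 CPM in KO HI and 214 ± 2.86 CPM in WT HI (SD, n = 4 each). Ctse had a fitted log2 fold change of 5.54 ± 1.39 (adjusted p = 0.0229), with 20 to 647 expected counts in KO HI and 3 to 12 in WT HI, and without KO HI 1 its adjusted p was 0.0591. limma-voom did not call Ctse, at 4.80 ± 2.53 (adjusted p = 0.234).

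These genotype calls were read beside the microglia markers of the libraries. All 15 microglia markers were higher in KO HI than in WT HI by the same test, with a mean of 8.42 ± 0.48 log2 CPM in KO HI and 6.52 ± 0.67 log2 CPM in WT HI (SD, n = 4 each). At the same time 5 of 12 pericyte markers and 9 of 12 endothelial markers were lower in KO HI. With the mean microglia marker level as a covariate, edgeR called 0 of 10 members, beside 0.00673% of all genes. At an unadjusted p under 0.05 there were 0 members, beside 3756 of 14853 genes. In that fit Ctss had a log2 fold change of 0.10 ± 0.23 and Ctsd one of -0.11 ± 0.36. Ctse lost its call at a value that stayed high with a wide error, 3.04 ± 2.62 (adjusted p = 0.435, edgeR). It did not follow the markers in every library, since KO HI 4 had 1.12 CPM of Ctse at a marker mean of 8.36 log2 CPM. Genotype and microglia marker level cannot be told apart here, since every KO HI library had more of them than any WT HI library. Leaving out single libraries also mattered: the count was 1, Ctss, without KO HI 1, WT HI 1, WT HI 4 or WT HI 5, it was 4 without KO HI 3, and it was 9 without KO sham 1. The calls over all genes moved in the same direction, to 481 to 669 in the fits with 1 member, 1028 without KO HI 3 and 3605 without KO sham 1. Ctss was called in all 15 of these fits, with adjusted p from 0.000951 to 0.0335.

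In sham cells edgeR called 0 of 10 members between genotypes, with 0.0135% of all genes called, DESeq2 called 0 with 0.215%, and limma-voom called 0. At an unadjusted p under 0.05 there were 3 members, Ctsd, Ctse and Ctss, beside 8.56% of all genes. Ctsd averaged 1485 ± 561 CPM in KO sham (SD, n = 4) and 852 ± 2.75 CPM in WT sham (SD, n = 3), with every KO sham library above every WT sham library and a log2 fold change of 0.80 ± 0.32 (adjusted p = 0.477, edgeR). Ctss was also without overlap, at 304 to 582 CPM in KO sham and 200 to 299 CPM in WT sham, with a log2 fold change of 0.78 ± 0.34 (adjusted p = 0.477). Ctsk was lower in every KO sham library, 14.3 to 47.8 CPM, than in any WT sham library, 51.2 to 56.4 CPM, with a log2 fold change of -0.79 ± 0.41 (adjusted p = 0.477). Such separation held for 4.63% of all genes in the higher direction and 5.49% in the lower.

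Relative to the microglia markers, the members divided. The mean log2 CPM of the 15 markers was subtracted from each member's log2 CPM in the same library, a measure chosen after the values had been seen and given without a test. For Ctsb, Ctsd, Ctsl and Ctsz all 8 HI libraries then lay above all 7 sham libraries, as they did for 1.29% of all genes. Ctsb stood 3.64 to 4.88 above the markers in HI libraries and 2.14 to 3.17 above them in sham libraries. Ctsl stood 2.005 to 3.39 above them in HI and 0.58 to 1.73 in sham. The order of the groups also changed, because these 4 were less far above the markers in KO HI than in WT HI, with Ctsd at 3.66 ± 0.21 in KO HI and 4.33 ± 0.17 in WT HI (SD, n = 4 each). Ctss stayed within a narrow band of 0.78 to 1.46 above the markers over all 15 libraries, whereas its own level ranged from 147 to 1132 CPM. With the microglia markers as a covariate the HI fits called 6 members in KO, where 2.83% of all genes were called, and 6 in WT, where 4.97% were. Ctsb then had a log2 fold change of 1.40 ± 0.23 in KO and 1.83 ± 0.26 in WT, and Ctss had 0.29 ± 0.13 and 0.35 ± 0.14. The microglia markers themselves gave 4 higher calls of 15 for HI in KO and 2 lower calls of 15 in WT. They did not all move alike. P2ry12 had 27.2 to 106 CPM in WT HI and 172.5 to 268 CPM in WT sham, and Tmem119 had 42.7 to 81.0 and 91.8 to 119.6 CPM. Cx3cr1 overlapped, at 181.6 to 630.7 CPM in WT HI and 337.2 to 452.5 CPM in WT sham. The mean of the 15 markers was 8.42 log2 CPM in KO HI and 7.81 in KO sham, and 6.52 in WT HI and 7.15 in WT sham. Less was thus subtracted in WT HI than in WT sham on average, which by itself widens the WT gap.

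**Figure D3:**
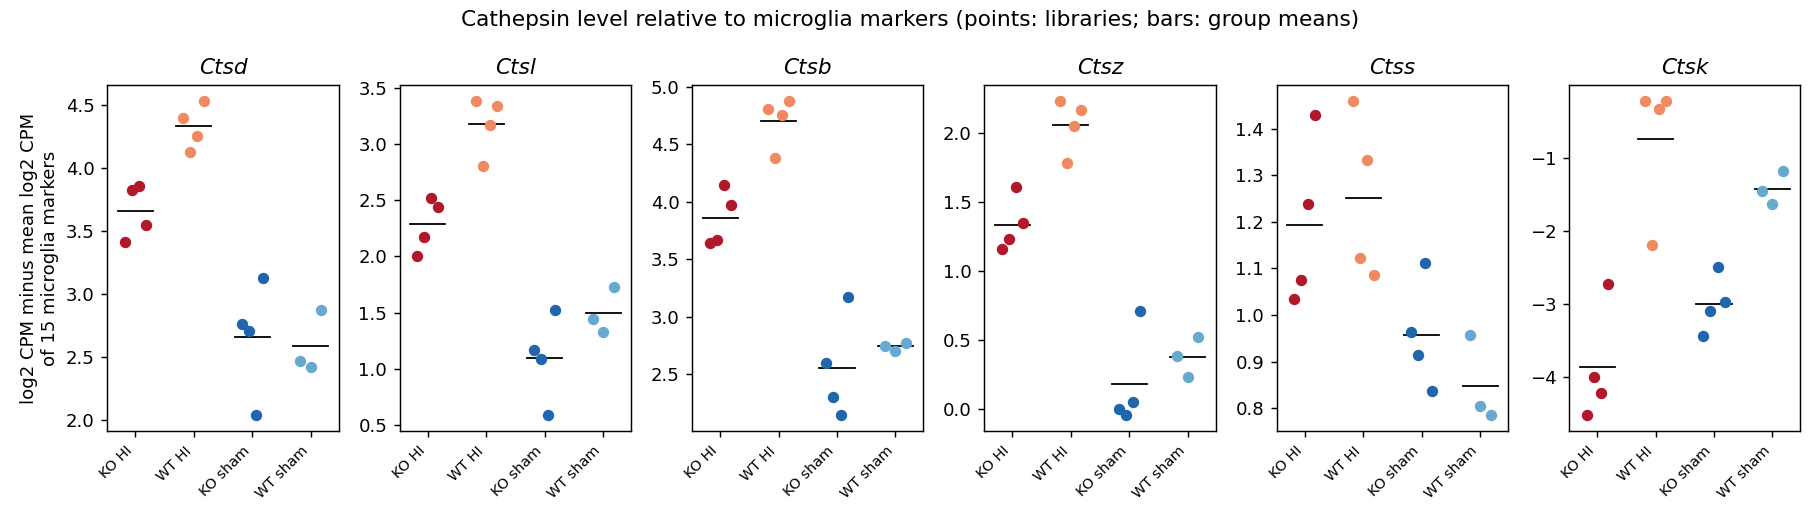
Log2 CPM of 6 cathepsins minus the mean log2 CPM of the 15 microglia markers in the same library (vertical axis, scaled separately for each gene), by group, with points for libraries and bars for means. For Ctsd, Ctsl, Ctsb and Ctsz all 8 HI points lie above all 7 sham points, and Ctss stays between 0.78 and 1.46.

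Markers of other blood-derived and border cells were read beside these values. The neutrophil and monocyte markers averaged 1.70 ± 0.69 log2 CPM in KO HI and 0.28 ± 0.61 in KO sham, and 1.11 ± 0.76 in WT HI and 0.36 ± 0.64 in WT sham. Their summed level ran from 88.9 to 175 CPM in KO HI, 37.2 to 112 CPM in WT HI, 41.1 to 90.0 CPM in KO sham and 31.4 to 53.1 CPM in WT sham. Of 11 tested, edgeR called 4 higher in KO HI and 0 in WT HI, where 4.88% and 1.38% of all genes were called higher. Border macrophage markers averaged 5.65 ± 0.59 log2 CPM in KO HI and 4.92 ± 0.61 in KO sham, with 1 of 8 called higher, and 4.56 ± 0.17 in WT HI and 4.68 ± 0.46 in WT sham, with 0 of 8 called. The part of these cells in the cathepsin values was not tested. With the neuron and choroid plexus markers as covariates the HI counts were 7 members in KO (6 higher, Ctsh lower) and 4 in WT (Ctsb, Ctsd and Ctsl higher, Ctsh lower), where the same fit called 2620 and 1267 of 14853 genes.

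Together the 10 genes held 1.43 ± 0.34% of all counts in KO HI, 0.694 ± 0.249% in WT HI, 0.499 ± 0.191% in KO sham (SD, n = 4 each) and 0.354 ± 0.0279% in WT sham (SD, n = 3). Compared per kilobase of the main annotated transcript, Ctsd led in all 4 groups, at 2075 ± 478, 922 ± 398 and 698 ± 264 CPM per kilobase in KO HI, WT HI and KO sham and 401 ± 1.29 in WT sham. Below it the order differed. In KO HI Ctsb (1082 CPM per kilobase), Ctsl (869), Ctsz (620) and Ctss (600) came next, and Ctsh was eighth at 133 ± 39.0. In WT sham Ctsh was next to Ctsd at 229 ± 23.1 CPM per kilobase, while Ctsl (204 ± 8.74), Ctsb (201 ± 29.5) and Ctss (192 ± 38.7) lay within their spread of each other. Ctsh made up 2.35% of the summed CPM per kilobase in KO HI, 5.19% in WT HI, 8.43% in KO sham and 14.9% in WT sham. Ctss made up 10.3%, 6.19%, 15.9% and 12.4% in the same groups. Ctsk at 17.3 to 36.8 and Ctse at 0.214 to 10.1 CPM per kilobase were the lowest in every group. The rank of Ctsl rests on the transcript used, since with its longest annotated transcript it had 65.2 CPM per kilobase in WT sham.

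**Figure D4:**
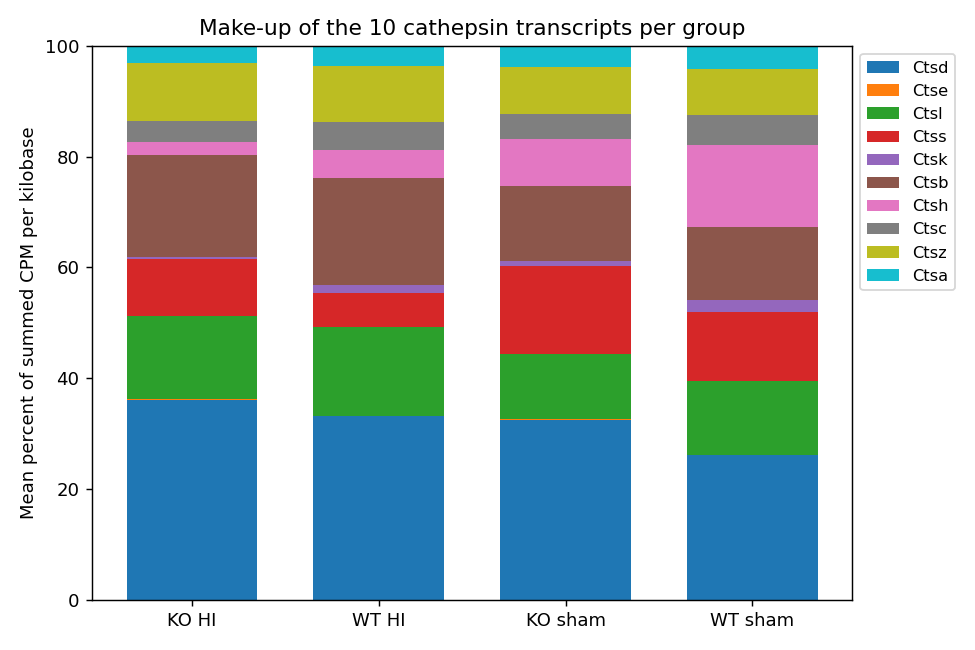
Mean percent of the summed CPM per kilobase of the 10 genes contributed by each (vertical axis) in the 4 groups. The share of Ctsd is 36.1% in KO HI against 26.2% in WT sham. That of Ctsh is 2.35% against 14.9% in the same groups.

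Likeness between genes was measured as the root mean square difference of log2 CPM, centred on each gene's mean, over the 15 libraries, and is given as a description. The libraries share depth, cell make-up and condition, which this measure does not separate. Among the members Ctsb and Ctsz differed least, by 0.165, followed by Ctsb and Ctsl at 0.167 and Ctsl and Ctsz at 0.175. The nearest genes outside the family were Ly9 and Pycard (0.190 each) and C3ar1 (0.203) for Ctsb, and Pycard (0.153), Ly9 and C3ar1 for Ctsz. Ctsa was nearest to Cln3 and Grn (0.136 each), genes of lysosomal storage diseases, and to Rassf4. Ctsd was nearest to Sdf2l1 (0.233), Slc37a2 and Cd68, and Ctsl to Uap1l1 (0.170), Sdf2l1 and Ly9. Ctss was near to Sla (0.123) and Ncf1 (0.135), and of the marker lists it was nearest to microglia (0.206). Ctsk was nearest to Gypc (0.0975), Anpep (0.147) and Ednra (0.160), and its nearest marker lists were fibroblast (0.170) and pericyte (0.183). Anpep is on the pericyte list. Ctsh was nearest to AI467606 (0.156), Lbr and Layn, and Ctsc to Ccdc86 (0.183), Cndp2 and Heatr1. Of the marker lists, neutrophil and monocyte was nearest to Ctsa, Ctsb, Ctsd, Ctsl and Ctsz (0.571, 0.641, 0.670, 0.601 and 0.580). Their differences from the microglia list were 0.636, 0.918, 0.770, 0.848 and 0.793. Ctsc was nearest to the border macrophage list (0.472, with microglia at 0.75), Ctsh to the endothelial list (0.45) and Ctse to microglia (2.02). Ctsk and Ctss are neighbours on chromosome 3, with 0 protein-coding genes between them in RefSeq's GRCm38 order, and yet differed by 1.37.

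Ctse had no close partner. Its nearest genes were Ifi202b at 1.44, Slamf8 at 1.56 and Itgax at 1.75. Ifi202b and Slamf8 lie on chromosome 1, as Ctse does, and Itgax lies on chromosome 7. The labels do not give the strain, and what the shared chromosome has to do with these counts was not tested. Ifi202b, an interferon-inducible gene, had 146, 53, 126 and 131 expected counts in KO HI libraries 1 to 4, against 0, 0, 21 and 17 in KO sham libraries 1, 3, 4 and 6. It had 2, 0, 0 and 0 in WT HI, against 2, 0 and 0 in WT sham. As with Ctse, KO sham 4 and 6 had counts while KO sham 1 and 3 and all WT libraries were at or near 0, but KO HI 4 was high for Ifi202b and low for Ctse.

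Some genes of a list of cathepsin inhibitors also rose with HI. Whether the serpins on it act on any of the 10 members was not examined. Of 13 tested in the inhibitor list, edgeR called 5 higher in KO HI and 4 in WT HI, beside 4.88% and 1.38% of all genes, and 0 lower, so 8 did not pass in KO and 9 did not in WT. Cstb, a cytoplasmic inhibitor of cysteine cathepsins, averaged 85.7 ± 18.3 CPM in KO HI and 29.7 ± 7.28 CPM in KO sham (SD, n = 4 each), a log2 fold change of 1.53 ± 0.20 (adjusted p = 0.00158, edgeR). In WT it averaged 59.3 ± 9.99 CPM in HI (SD, n = 4) and 31.2 ± 2.21 CPM in sham (SD, n = 3), a log2 fold change of 0.93 ± 0.21 (adjusted p = 0.0451). Cst7, an inhibitor that acts on Ctsc, had 5.01 to 14.1 CPM in KO HI and 0.737 to 2.80 CPM in KO sham, and 2.37 to 6.44 CPM in WT HI and 0.447 to 0.858 CPM in WT sham. Its log2 fold changes were 2.76 ± 0.50 in KO (adjusted p = 0.00831) and 2.50 ± 0.57 in WT (adjusted p = 0.0431). The serpin Serpina3n rose by a log2 fold change of 2.91 ± 0.80 in KO (adjusted p = 0.0470) and 5.29 ± 1.04 in WT (adjusted p = 0.0202). Serpina3g, another serpin, rose by 1.45 ± 0.26 in KO and 2.62 ± 0.30 in WT. After HI Serpina3g was lower in KO than in WT, at 9.44 to 16.5 CPM in KO HI and 25.7 to 43.0 CPM in WT HI (log2 fold change -1.30 ± 0.25, adjusted p = 0.00932). Ctla2a, Serpinb1a and Serpinb6a were also lower in KO HI than in WT HI, and Cst3, the secreted cystatin C, was higher by 1.29 ± 0.29 (adjusted p = 0.0161). In this comparison edgeR called 4 of the 13 lower and 1 higher, beside 6.46% and 5.96% of all genes.

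Genes that deliver, activate or house cathepsins were tested in the same fit. Of 14 lysosome membrane and proton pump genes, 9 rose in KO HI and 1, Cd63, in WT HI, and 8 were higher in KO HI than in WT HI, where 4.88%, 1.38% and 5.96% of all genes were called higher. Cd63 averaged 424 ± 24.9 CPM in KO HI and 200.3 ± 27.2 CPM in KO sham (SD, n = 4 each), with a log2 fold change of 1.08 ± 0.11 (adjusted p = 0.000314, edgeR). The pump subunits Atp6v0c, Atp6v0a1 and Atp6v1b2 rose by 0.91 ± 0.13, 0.72 ± 0.11 and 0.89 ± 0.17 in KO HI. Of 14 delivery and activation genes, Neu1, Gnptab and Lgmn rose in KO HI, and the receptor Sort1 fell by 0.51 ± 0.11 on the log2 scale in WT HI. Lgmn encodes legumain, which processes cathepsin precursors, and averaged 2204 ± 667 CPM in KO HI and 908 ± 237 CPM in KO sham (SD, n = 4 each), a log2 fold change of 1.28 ± 0.30 (adjusted p = 0.0254). Of 7 tested MHC class II and invariant chain genes, H2-DMb1 rose in KO HI and 0 were called in WT HI by edgeR. Between genotypes after HI, H2-DMb1, H2-DMa and Cd74, the invariant chain cut by Ctss, were higher in KO HI than in WT HI by 1.17 ± 0.19, 1.50 ± 0.25 and 1.15 ± 0.28 on the log2 scale. In 3 tested genes of 13 other cathepsins listed, Ctsf was higher in KO HI (0.66 ± 0.12, adjusted p = 0.00739) and Ctsw, the cathepsin of cytotoxic lymphocytes, was lower (-1.85 ± 0.48, adjusted p = 0.0268), at 3.15 to 9.78 CPM in KO HI and 18.1 to 26.5 CPM in WT HI. The difference of HI responses gave 0 edgeR calls in any of these lists. The genotype differences after HI of these genes and of the inhibitors have the limit given for the members. Genotype and microglia marker level cannot be told apart there, and with the microglia covariate edgeR called 0.00673% of all genes.

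The promoter windows of the members that had one were read for the CACGTG motif, an E-box that includes the core of the element bound by TFEB, a regulator of lysosomal genes. RefSeq windows of 250 bases before the annotated start (build GRCm38.p6) were at hand for Ctsa (2 starts), Ctsc, Ctsd, Ctsk, Ctsl, Ctss and Ctsz, 8 in all, and not for Ctsb, Ctse and Ctsh. CACGTG, which reads the same on both strands, was in 3 of the 8 windows and in 6.02% of 32851 windows of this length. The 3 that hold it are shown 5′ to 3′ on the gene's strand, with CACGTG in capitals. They lie at chr2:164833523-164833772 (plus strand) for Ctsa, chr7:142387828-142388077 (minus strand) for Ctsd and chr13:64370521-64370770 (minus strand) for Ctsl.
Ctsa: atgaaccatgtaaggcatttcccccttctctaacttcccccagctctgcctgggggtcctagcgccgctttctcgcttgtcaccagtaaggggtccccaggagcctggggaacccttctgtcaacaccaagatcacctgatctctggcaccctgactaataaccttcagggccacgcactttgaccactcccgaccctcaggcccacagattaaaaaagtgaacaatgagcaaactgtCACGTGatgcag
Ctsd: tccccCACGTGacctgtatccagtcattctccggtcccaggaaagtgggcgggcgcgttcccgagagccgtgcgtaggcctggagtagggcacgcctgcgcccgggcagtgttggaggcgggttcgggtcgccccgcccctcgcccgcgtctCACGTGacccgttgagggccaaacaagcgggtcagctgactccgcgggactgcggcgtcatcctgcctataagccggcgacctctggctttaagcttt
Ctsl: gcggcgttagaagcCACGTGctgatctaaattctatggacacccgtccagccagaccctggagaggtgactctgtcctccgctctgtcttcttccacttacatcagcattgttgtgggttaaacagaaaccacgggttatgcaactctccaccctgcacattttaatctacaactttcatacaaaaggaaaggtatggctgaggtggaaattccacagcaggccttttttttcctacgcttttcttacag
The motif began 12 bases before the start in Ctsa, 245 and 98 bases before it in Ctsd, and 236 bases before it in Ctsl. Each of these 3 genes rose in KO HI. Ctsc and Ctsz rose there too without the motif in this window, and Ctsk and Ctss, which edgeR did not call for HI, had no CACGTG in this window, and DESeq2 called Ctss in KO. The AP-1 letters TGACTCA or TGAGTCA, searched on both strands, were in 0 of the 8 windows and in 4.46% of all windows. The PU.1 letters GAGGAAGT, on both strands, were in 1 of the 8, 151 bases before the start of Ctsc, and in 2.44% of all windows. A match of letters is a description and does not show that a factor binds.

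The microRNA removed in the KO mice has 2 mature forms in RefSeq. The -3p form reads as follows, with the seed, bases 2 to 8, in capitals. This form lies at chr7:141221407-141221428 (GRCm38.p6, minus strand), on the chromosome of Ctsd and Ctsc.
mmu-miR-210-3p: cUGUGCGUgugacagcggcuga
In RefSeq's order 46 protein-coding genes lie between Mir210 and Ctsd, and 745 between Mir210 and Ctsc. The letters ACGCACA, the match to the -3p seed, were in the annotated 3' UTR of 0 of 10 members and of 3.26% of the 20964 genes with one. Matches to the other mature form were not searched. Of the members on that chromosome, Ctsd was higher in KO HI than in WT HI by 1.17 ± 0.30 on the log2 scale and Ctsc by 0.67 ± 0.20. Reads of Ctsa, Ctsb, Ctss and Ctsz are less certain, because other annotated genes overlap them and the sources used here do not say whether counting used the strand.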

How the data were processed

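The authors deposited expected counts per gene, without normalization. No header names this unit, which was inferred because 3.12% to 3.92% of a library's values had decimals and RSEM is listed. RSEM 1.3.1, DESeq2 1.4.5, Bowtie, Bowtie2 2.4.4 and HISAT2 2.1.0 are named with build mm39, per the submitters' processing notes. The role of each is not given in the sources used here. Of 65535 lines, 17892 had values and 47643 were blank, and 17862 were matched to a symbol by Entrez identifier. A blank line does not show that a gene was unexpressed.

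Expected counts were rounded to whole numbers. 1 model of 4 group means over 15 libraries was fitted with edgeR 4.0.16 (R 4.3.3; TMM, filterByExpr, glmQLFit, glmQLFTest), which tested 14853 genes in 5 contrasts, with Benjamini-Hochberg adjustment over all of them and calls at an adjusted p under 0.05. The steps were tested on simulated data. The biological coefficient of variation was 38.6%. Standard errors were taken from the fold change and its F statistic. CPM values are scaled by TMM. Levels between genes were compared per kilobase of the shortest principal transcript in GENCODE's mouse annotation of GRCm38, which differs from the authors' build. Replicates of a group differed by more than sampling noise, with chi-square per degree of freedom from 11.7 to 400. Alternatives were DESeq2 1.42.0, limma-voom (limma 3.58.1), RLE size factors, no filter, fits of only the groups compared, a replicate block, marker covariates, and leaving out 5 libraries together or each library in turn.

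The 10 members and all gene lists were chosen with earlier results of these data known. Named genes are all members, up to 4 called genes with the smallest p from each companion list and contrast, and the 3 genes most like each member, leaving out symbols of the Gm and Rik kinds; 1 of these genes is not reported here. Same-numbered libraries were not taken as pairs. The targeted microRNA, whose line is blank, was not analysed here.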

Additional observations from a re-analysis of the deposited data

Results flagged for a closer look

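A single library, WT HI 2, stood apart from the rest of its group for 6 of the 10 members. It had the group's highest level of Ctsb (3849 CPM), Ctsd (3229 CPM), Ctsl (1287 CPM), Ctsz (634 CPM) and Ctsc (409 CPM) and the lowest of Ctsk (40.1 CPM), each at a gap that took more than 0.829 of the group's range. These were the only such gaps among 30 sets of 4 libraries (10 members in 3 groups), where chance gives about 5%. The 6 are not separate observations, since they come from the same library. WT HI 2 also had a microglia marker mean of 7.53 log2 CPM, against 6.12 to 6.26 in the other 3 WT HI libraries, and a pericyte marker mean of 7.85, against 8.17 to 8.39. The choroid plexus marker mean of WT HI 2 was 7.46, close to the 7.12 of WT HI 5, with 1.82 in WT HI 1 and 3.80 in WT HI 4. The part of these markers in the 6 values was not tested. Without this library 8 members and 2016 of 14822 genes were called between KO and WT after HI, Ctsb among them at a log2 fold change of 1.32 ± 0.32 (adjusted p = 0.0183, edgeR). For HI in WT that fit called 0 members and 191 genes, with 6 members and 1633 genes at an unadjusted p under 0.05.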

How the results depend on the processing

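For HI against sham in WT, where edgeR called 0 members, the count was 5 by DESeq2, 1 by limma-voom, 6 with the microglia covariate, 4 with the neuron and choroid covariates, 7 in the fit of WT libraries only, 2 without the 5 libraries with high neuron markers, and 0 to 2 when single libraries were left out. Over all genes these fits called 782, 281, 738 and 1267 of 14853, 2443 of 14253, 750 of 14610, and 48 to 554. It was 2 without KO sham 1 and 1 without KO sham 6, libraries of neither group compared. For HI against sham in KO, with 6 calls, the count was 0 in the fit of KO libraries only, with 16 of 14384 genes called. It was 5 without the 5 libraries with high neuron markers (Ctsd lost, adjusted p = 0.0562, edgeR, with 2458 of 14610 genes called). When single libraries were left out it was 6 to 6, with 355 to 1927 genes called in all. For KO against WT after HI, with 7 calls, it was 0 with the microglia covariate and 1 to 9 when single libraries were left out, with 481 to 3605 genes called in all. In sham and in the difference of responses the count was 0 under every alternative run.

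The labels' replicate numbers recur between groups. The deviations of same-numbered libraries had correlations from -0.784 to 0.793, and 3 of 6 (KO HI and KO sham) and 4 of 6 (KO HI and WT HI) were nearest their own number. With so few libraries these values cannot decide whether the numbers mark pairs. With a replicate block the count of members was 0 for HI in WT, 2 for HI in KO, 0 for KO against WT in sham, 0 for KO against WT after HI and 0 for the difference. In the same order it called 16, 73, 1, 21 and 0 of 14853 genes. At an unadjusted p under 0.05 there were 6, 6, 1, 9 and 0 members, beside 1589, 2497, 2551, 3062 and 286 of 14853 genes. Under that block the log2 value of Ctsk changed sign for HI in WT (-0.28) and for the difference of responses (0.19), neither of them called.

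With the microglia covariate the sign of the log2 fold change also changed for Ctse (0.19) and Ctss (0.35) for HI in WT. For KO against WT in sham it changed for Ctsa (-0.074), Ctsc (-0.15), Ctsl (-0.15) and Ctsz (-0.052). For KO against WT after HI it changed for Ctsa (-0.25), Ctsb (-0.41), Ctsc (-0.20), Ctsd (-0.11), Ctsh (-0.71), Ctsl (-0.23) and Ctsz (-0.40). For the difference of responses it changed for Ctsa (-0.17), Ctsb (-0.43), Ctsc (-0.042), Ctsd (-0.42), Ctsh (-0.069), Ctsl (-0.082), Ctss (-0.060) and Ctsz (-0.35). With the neuron and choroid covariates Ctsk changed sign for HI in WT (-0.27) and in the difference (0.021), and with limma-voom Ctsh after HI (-0.053). Leaving out single libraries changed the sign of Ctss for HI in WT (-0.53 to 0.051), Ctsk for HI in KO (-0.75 to 0.081), Ctsh between genotypes after HI (-0.11 to 0.19) and Ctsk in the difference (-0.81 to 0.0090). The cause of these changes was not tested. Intervals from depth matter only for Ctse, at 3 to 15 expected counts in WT libraries.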
